A study of Mus musculus with 8 samples.

Results

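The genes described here are 7 mouse genes of the extracellular matrix that had GATA2 peaks in or around them: Dcn, Lum, Postn, Lox, Adamts5, Mmp2 and Timp3. They are 7 of the 21631 protein-coding genes of the RefSeq table for mm10 (GRCm38.p6) on the 20 chromosomes that carry peaks. The genes were picked because earlier results on these lists had shown a peak within 100 kb, so the presence of a peak is how they were chosen and is described without a test. GATA2 binding was mapped by chromatin immunoprecipitation and sequencing (ChIP-seq), in which an antibody pulls down the DNA that a protein is attached to. The 2 cell lines were 3T3-L1, a mouse fibroblast line committed to becoming fat cells, and C3H10T1/2, a mouse embryonic fibroblast line that can still take several mesenchymal fates. Both came from ATCC, were used at passages 4 to 6, and the labels give no genetic change or treatment for either. The antibody was sc-9008x. The labels name 2 GATA2 ChIP libraries and 2 input libraries without antibody for each line. DNA from individual precipitations was pooled before library preparation, so a library may hold more than 1 precipitation, and each cell type is represented by 1 established line.

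One peak list per line was analysed. The 3T3-L1 list held 2445 peaks and the C3H10T1/2 list 1557, each given as a start and an end with no height or score. All statements below therefore concern where peaks lay and how wide they were, not how strongly GATA2 was bound. The read depth is unknown, and no replicate value stands behind a list, so a difference between the lists has no culture-to-culture spread to be measured by. Expression of these genes was not analysed here.

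GATA2 is a zinc finger transcription factor that binds DNA sites around the letters GATA. In fat precursor cells it is known for holding back maturation, and it often acts from enhancers away from gene starts. The matrix genes fall into several roles. Decorin (Dcn) and lumican (Lum) are small leucine-rich proteoglycans that coat collagen fibrils and limit their thickness. Periostin (Postn) is a matricellular protein that links collagen to cells. Lysyl oxidase (Lox) cross-links collagen and elastin. Adamts5 encodes an aggrecan-cleaving protease, Mmp2 encodes gelatinase A, and Timp3 encodes a matrix-bound inhibitor of such proteases. Assembly and turnover of this matrix accompany the change from fibroblast-like precursor to fat cell.

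RefSeq promoter sequences were at hand for 2 of the 7 genes, Postn and Timp3. They are printed because the peaks of these genes lay far from them. Each line below gives the 250 bases before an annotated start (GRCm38.p6, 5′ to 3′), and Postn has more than 1 annotated start.
Postn, chr3:54359017-54359266, plus strand: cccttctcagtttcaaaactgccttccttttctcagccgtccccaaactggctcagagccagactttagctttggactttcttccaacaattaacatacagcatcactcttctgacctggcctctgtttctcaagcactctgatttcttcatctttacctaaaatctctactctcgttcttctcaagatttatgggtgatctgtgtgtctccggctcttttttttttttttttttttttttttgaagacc
Postn, chr3:54360857-54361106, plus strand: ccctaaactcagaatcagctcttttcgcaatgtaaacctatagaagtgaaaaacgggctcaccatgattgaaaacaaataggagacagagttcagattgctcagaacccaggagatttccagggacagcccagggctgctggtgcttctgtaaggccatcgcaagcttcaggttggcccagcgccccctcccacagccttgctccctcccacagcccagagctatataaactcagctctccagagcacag
Timp3, chr10:86300162-86300411, plus strand: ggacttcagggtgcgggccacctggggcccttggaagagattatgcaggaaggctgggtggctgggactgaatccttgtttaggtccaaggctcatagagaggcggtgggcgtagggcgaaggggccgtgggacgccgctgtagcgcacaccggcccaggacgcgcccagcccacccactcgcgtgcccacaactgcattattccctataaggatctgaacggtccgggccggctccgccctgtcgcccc
The forms of the GATA site searched on both strands were AGATAA, then its variant AGATAG, then with another leading base TGATAA, and last its own variant TGATAG. Overlapping matches were each counted, and any match would have been capitalised. None of these 3 windows held a match, where 26.5% of all 32851 promoter windows of this length did. The absence says only that these letters are not in these windows. No peak of either list overlapped a window. The peak nearest to the Timp3 start lay 65.4 kb away in 3T3-L1 and 97.5 kb away in C3H10T1/2. For the lower Postn start the distance was 87.9 kb in both lines. The sequences under the peaks themselves are not printed here.

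Counting each peak once, the 3T3-L1 list had 13 peaks and the C3H10T1/2 list 8 in the bodies of the 7 genes or within 100 kb of them, measured from the peak centre to the gene. A peak that reached both Dcn and Lum occurred 2 times in 3T3-L1 and 1 time in C3H10T1/2. Without that correction the gene and peak pairs numbered 15 and 9. Peaks that overlapped between the lines by at least 1 bp were called shared. There were 4 shared sites and 13 sites of one line alone, 17 in all. Most of these sites lay outside the 10 kb windows of the 7 genes. In 3T3-L1, 12 of the 13 peaks lay more than 10 kb from the nearest of the 7 genes, and in C3H10T1/2 it was 7 of 8. The median distance was 56.1 kb in 3T3-L1 and 50.5 kb in C3H10T1/2.

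**Figure D1:**
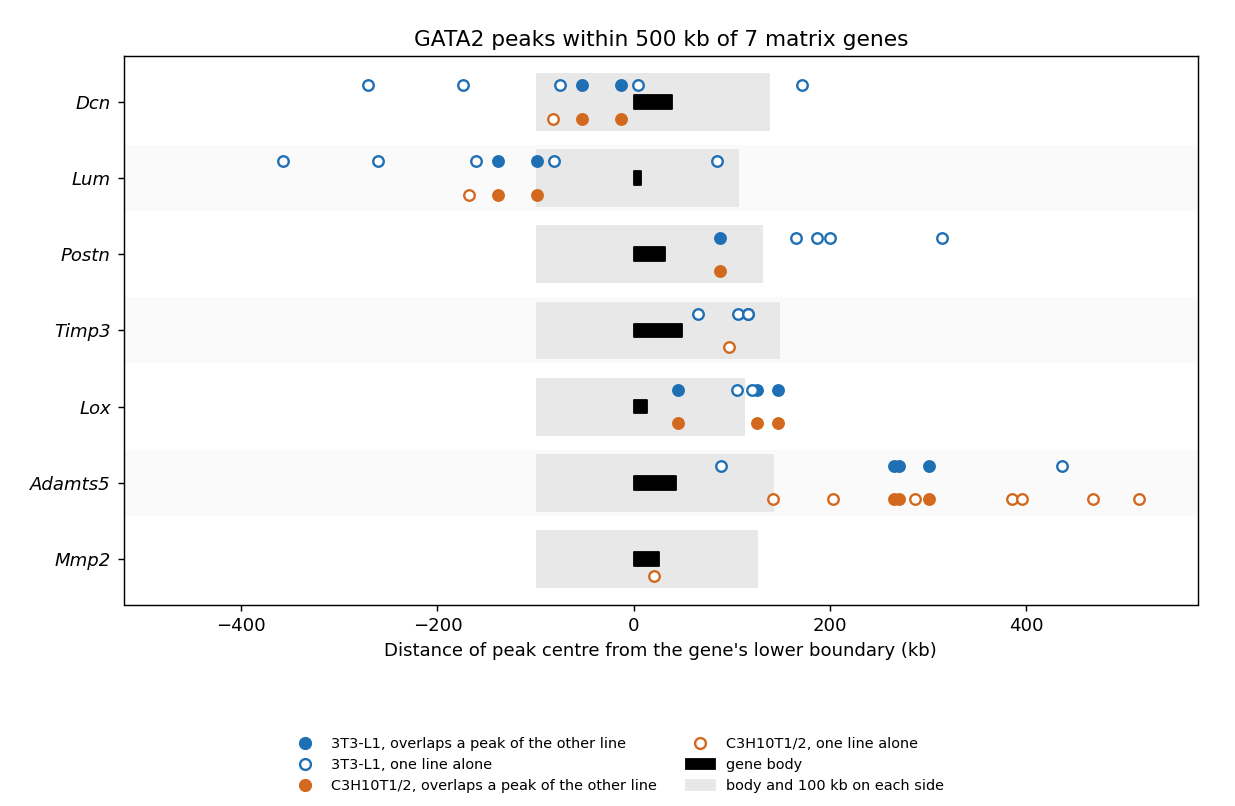
Each row is 1 gene, with its body in black and the 100 kb windows in grey, and each circle is the centre of a peak, placed by its distance in kb from the gene's lower boundary (x axis). Blue marks 3T3-L1 and orange C3H10T1/2, and filled circles are peaks that overlap a peak of the other line. Filled circles stand in the windows of Dcn, Lum, Postn and Lox, and a row of C3H10T1/2 peaks runs out from Adamts5 to 472 kb beyond the gene.

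Inside the 100 kb window, a 3T3-L1 peak was present for 6 of 7 genes and a C3H10T1/2 peak for all 7. Over all protein-coding genes the shares were 13.9% and 12.1%. A peak in both lines was found at 6 of 7 genes, against 6.35% of all genes, and a shared site at 4 of 7 (Dcn, Lum, Postn and Lox), against 5.36%. These counts only restate how the genes were picked. The window mattered. Inside the gene body there was 1 gene per line, Dcn in 3T3-L1 (background 2.79%) and Mmp2 in C3H10T1/2 (background 2.59%). Within 10 kb these remained the only genes (background 3.96% and 3.64%). Within 50 kb there were 4 genes per line, Dcn, Timp3, Lox and Adamts5 in 3T3-L1 (background 8.6%) and Dcn, Timp3, Lox and Mmp2 in C3H10T1/2 (background 7.36%). Widening the window to 500 kb could add only Mmp2 in 3T3-L1 and no gene in C3H10T1/2. It added none, while the background rose to 45.3% and 39.2%. Several genes sat close to the 100 kb limit. Just inside it lay the C3H10T1/2 peak of Adamts5 at 98.8 kb and the shared site at 98.6 kb from Lum. Just outside it lay a 3T3-L1 peak 107 kb above Lox and a shared site 112 kb above Lox.

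**Figure D2:**
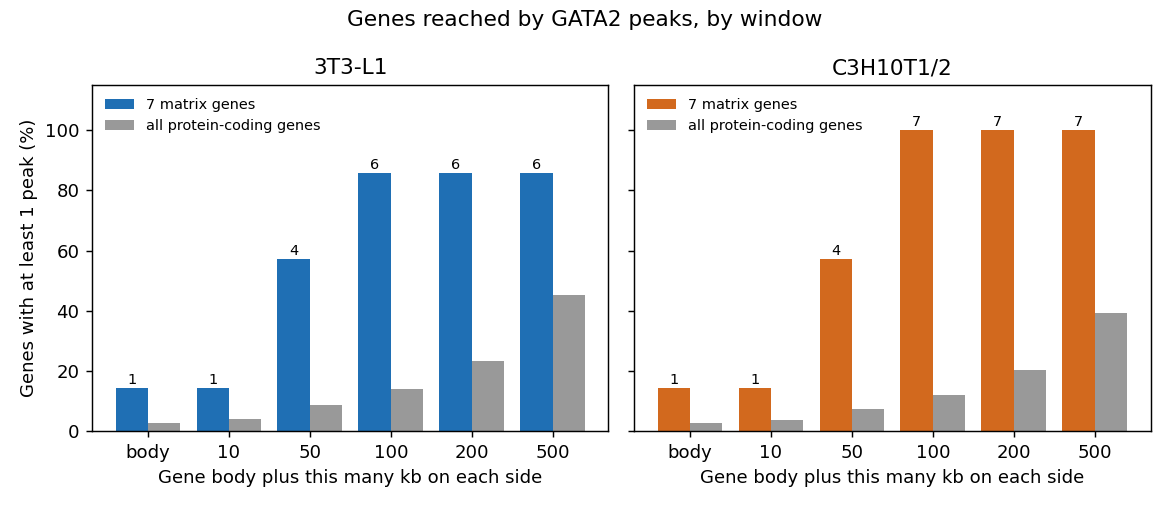
Bars give the percentage of genes with at least 1 peak in the gene body or within the stated number of kb (x axis), for the 7 matrix genes (coloured, with the number of genes above the bar) and all protein-coding genes (grey), by cell line. The coloured bars go from 1 gene at 10 kb to 6 genes in 3T3-L1 and 7 in C3H10T1/2 at 100 kb, and stay there at 500 kb.

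Dcn had the most peaks of the 7 genes within 100 kb when a shared site was counted in each list. With its 2 shared sites counted once each, Dcn was level with Timp3, which had 4 and 1 peaks in the lists and none shared. It spans 97479500 to 97518163 on chromosome 10 (38.7 kb). In 3T3-L1 it had 4 peaks and in C3H10T1/2 it had 3, and all but 1 lay below its lower boundary. That 1 peak, of 3T3-L1 alone, lay inside the gene at 97484101 to 97484374, 4.74 kb from the lower boundary. It was 274 bp wide, and 91.0% of the 3T3-L1 peaks were no wider. The nearest C3H10T1/2 peak was 17.3 kb away from it.

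A shared site lay 12.6 kb below Dcn. It covered 97466898 to 97466980 in the 3T3-L1 list and 97466890 to 97466987 in the C3H10T1/2 list, so the first lay wholly inside the second and their centres differed by 1 bp. Another shared site lay 52.6 kb below the gene, where the 3T3-L1 peak covered 97426858 to 97427001 and that of C3H10T1/2 covered 97426852 to 97426961, with 104 bp in common. Farther out, a 3T3-L1 peak at 97404510 to 97404623 and a C3H10T1/2 peak at 97397311 to 97397464 lay 74.9 kb and 82.1 kb below the gene. These did not overlap, and their centres were 7.18 kb apart. The 52.6 kb site and these outer peaks fell inside Gm34114, a long noncoding RNA gene at 97388758 to 97428583 on the minus strand. The centres of the shared peaks lay 1654 bp (3T3-L1) and 1677 bp (C3H10T1/2) inside Gm34114 from its annotated start at 97428583. Dcn was nevertheless the nearest protein-coding gene of all these peaks, and on that side the next protein-coding gene, Gm46240, was 559 kb away. Beyond the window, 3T3-L1 had further peaks 174 kb and 271 kb below Dcn, and C3H10T1/2 had none there within 500 kb.

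Lum lies 47.3 kb above Dcn, at 97565501 to 97572703 (7.2 kb), and had no peak in its body or within 50 kb in either line. It was reached by the site 12.6 kb below Dcn, which is 98.6 kb from Lum, and by the 3T3-L1 peak inside Dcn, 81.3 kb away. Dcn was the nearer gene in each case. The one peak in the Lum window that did not also reach Dcn was a 3T3-L1 peak at 97650619 to 97650764, 78.0 kb above Lum. It lay inside Epyc, which encodes another small leucine-rich proteoglycan, and 37.0 kb from Kera, the keratocan gene that stands between Lum and Epyc. C3H10T1/2 had no peak within 100 kb of Kera or Epyc, where its nearest peaks were 140.0 kb and 177 kb away. In this gene cluster the shared sites were thus all on the Dcn side.

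Postn, at 54359267 to 54391041 on chromosome 3 (31.8 kb), had 1 peak within 100 kb in each line, and these were shared. In 3T3-L1 it covered 54447000 to 54447267, and in C3H10T1/2 it covered 54447031 to 54447300, 56.1 kb above the gene. Since Postn lies on the plus strand, this side is downstream of it. The peaks were 268 bp and 270 bp wide and had 237 bp in common, and no other protein-coding gene lay within 100 kb of them. Wider still from Postn the lines differed in what was listed. 3T3-L1 had peaks 134 kb, 155 kb, 168 kb and 282 kb above the gene and C3H10T1/2 had none. The first of these lay inside the noncoding RNA gene Gm31154, and the other 3 were nearer to Supt20, a subunit gene of a histone acetyltransferase complex, than to Postn.

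Lox, at 52516060 to 52529867 on chromosome 18 (13.8 kb), had a shared site 31.0 kb above it. It covered 52560819 to 52560999 in 3T3-L1 and, in C3H10T1/2, 52560859 to 52561031, with 141 bp in common, and Lox was their nearest protein-coding gene. Srfbp1, Zfp474 and 1700034E13Rik also lay within 100 kb of the site. A second 3T3-L1 peak in the Lox window, at 52621426 to 52621566, lay 91.6 kb away inside Zfp474, a zinc finger gene, and was not shared. Past the window there were 2 more shared sites, 112 kb and 133 kb above Lox. Their nearest genes were Zfp474, at 1.85 kb, and 1700034E13Rik, inside which the farther site lay.

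Adamts5, at 85858157 to 85901125 on chromosome 16 (43.0 kb), had 1 peak within 100 kb in each line, and these were at different places. The 3T3-L1 peak at 85947334 to 85947564 lay 46.3 kb above the gene. The C3H10T1/2 peak at 85999746 to 86000005 lay 98.8 kb above it, and the centres were 52.4 kb apart. Adamts5 faces a long gap without protein-coding genes, since its next neighbour on that side, N6amt1, is 1453 kb away. In the first 500 kb of this gap, as far as peaks were listed here, the lines had 3 shared sites, 222 kb, 227 kb and 258 kb from Adamts5. At the site 227 kb away the 3T3-L1 peak (86127966 to 86128184) lay wholly inside the C3H10T1/2 peak (86127953 to 86128184). Further C3H10T1/2 peaks of that line alone stood at 160.4 kb, 244 kb, 342 kb, 353 kb, 425 kb and 472 kb, and a further 3T3-L1 peak at 393 kb. Adamts5 was the nearest protein-coding gene of every one of these peaks. Its genomic neighbour on the other side, the protease gene Adamts1, was 55.0 kb away and lacked a peak in this window in both lists (nearest 144 kb and 197 kb).

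Mmp2, at 92827290 to 92853421 on chromosome 8 (26.1 kb), differed from the other 6 genes in having its only peak inside the gene, so the description of a distal site does not hold for it. The C3H10T1/2 peak at 92847407 to 92847646 was 240 bp wide and lay 5.89 kb from the higher boundary of Mmp2. Lpcat2, which encodes an enzyme of phospholipid remodelling, begins 1.89 kb beyond that boundary and was also within 100 kb of the peak, as was Capns2. The 3T3-L1 list had no peak within 500 kb of Mmp2, and its nearest was 697 kb from the gene. Of all protein-coding genes, 54.9% had a nearer 3T3-L1 peak than Mmp2.

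Timp3, at 86300412 to 86349505 on chromosome 10 (49.1 kb), had 4 3T3-L1 peaks in its 100 kb window, beside 1 C3H10T1/2 peak, and none was shared. All lay above the gene, which is on the plus strand, so they were downstream of it. The 3T3-L1 peaks lay 16.3 kb, 57.6 kb, 67.2 kb and 67.6 kb from Timp3, the nearest at 86365676 to 86365861. The outer 2 of these stood close together, at 86416650 to 86416803 and 86416997 to 86417136. The C3H10T1/2 peak at 86397818 to 86397958 lay 48.4 kb from Timp3 and 9.23 kb from the nearest 3T3-L1 peak. Timp3 lies within Syn3, the synapsin III gene, which spans 86048746 to 86498926 (450.2 kb). All 5 peaks lay in the body of Syn3, so Syn3 and not Timp3 was the gene they lay in. Neither line had a peak between 100 and 500 kb from Timp3.

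Across the 7 genes, 4 of 13 peaks of 3T3-L1 (30.8%) and 4 of 8 of C3H10T1/2 (50%) were shared, against 22.4% and 34.7% of the whole lists. With so few peaks these shares carry no more than their counts. The shared sites belonged to Dcn (2, of which 1 also reached Lum), Postn (1) and Lox (1). Their centres differed by 1 to 36 bp between the lines, with a median of 27.5 bp, where all 548 shared 3T3-L1 peaks had a median of 20 bp. Adamts5, Timp3 and Mmp2 had peaks of one line alone. By Dcn the nearest unshared peaks of the lines lay 7.18 kb apart, by Timp3 9.23 kb and by Adamts5 52.4 kb. The genes had been picked for nearby peaks, mostly in both lists, so this closeness is not set against the whole lists. The Mmp2 peak lay 718 kb from the nearest 3T3-L1 peak.

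The peaks by these genes covered most of the range of common widths. In 3T3-L1 they were 83 to 274 bp wide with a median of 146 bp (list median 144 bp), and in C3H10T1/2 98 to 270 bp with a median of 163.5 bp (list median 184 bp). Of the shared Dcn sites, the nearer was narrow in both lists and the farther in C3H10T1/2 alone. At 12.6 kb from Dcn the widths were 83 bp in 3T3-L1 and 98 bp in C3H10T1/2, where 9.2% and 1.09% of the peaks of each list were no wider. At 52.6 kb they were 144 bp and 110 bp (50.8% and 2.57% no wider). The commonest width in the C3H10T1/2 list was 124 bp, held by 98 peaks, and 51 of the 1557 peaks were narrower, among them both shared Dcn peaks. Of those 51 peaks, 13 were shared. The shared Postn site was wide in both lists (90.1% and 84.7% no wider), and the Lox site was in between (68.6% and 44.0%).

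**Figure D3:**
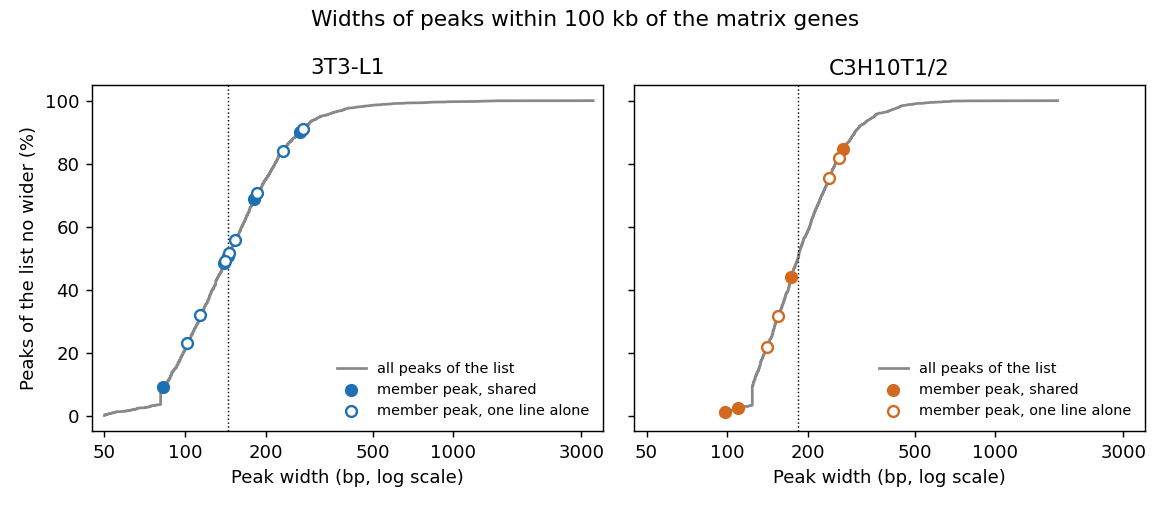
The grey curve gives, for each peak width in bp (log axis), the percentage of peaks of the list that are no wider, the dotted line marks the list's median width, and circles are the peaks within 100 kb of the 7 genes, filled where shared. In C3H10T1/2 the 2 shared Dcn peaks, 98 and 110 bp wide, sit at the foot of the curve, and the shared Postn peak, 270 bp wide, near its top.

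The stretch from 100 to 500 kb was looked at as well, with limits set after the peaks had been seen. Some peaks there belong to the window of a neighbour: both C3H10T1/2 peaks in this stretch of Lum lie within 100 kb of Dcn, and the 3T3-L1 peak in Epyc lies in this stretch of Dcn but in the window of Lum. Peaks within 100 kb of any of the 7 genes were therefore left out of the counts that follow. A peak then remained for 5 of 7 genes in 3T3-L1 (Dcn, Lum, Postn, Lox and Adamts5). Over all genes, with no such peaks left out, the share was 38.2%, and it was 49% of those with a peak within 100 kb. In C3H10T1/2 a peak remained for 2 of 7 (Lox and Adamts5), against 32.8% and 47.2%. Adamts5 had 9 C3H10T1/2 peaks in this stretch, a number reached by 15 of the 21631 genes (0.0693%, Adamts5 included), and 4 of 3T3-L1, reached by 2.25%. Among genes with a peak of the same list within 100 kb, these shares were 0.307% and 4.76%. The 90th percentile over genes with a peak within 100 kb was 2 peaks in each line. In 3T3-L1 Postn had 4 peaks and Lox 3, and Dcn and Lum had the same 2. Timp3 and Mmp2 had 0 in both lines. Counting each peak once, the stretch held 13 peaks of 3T3-L1 and 11 of C3H10T1/2, of which 5 in each were shared, at Lox and Adamts5.

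**Figure D4:**
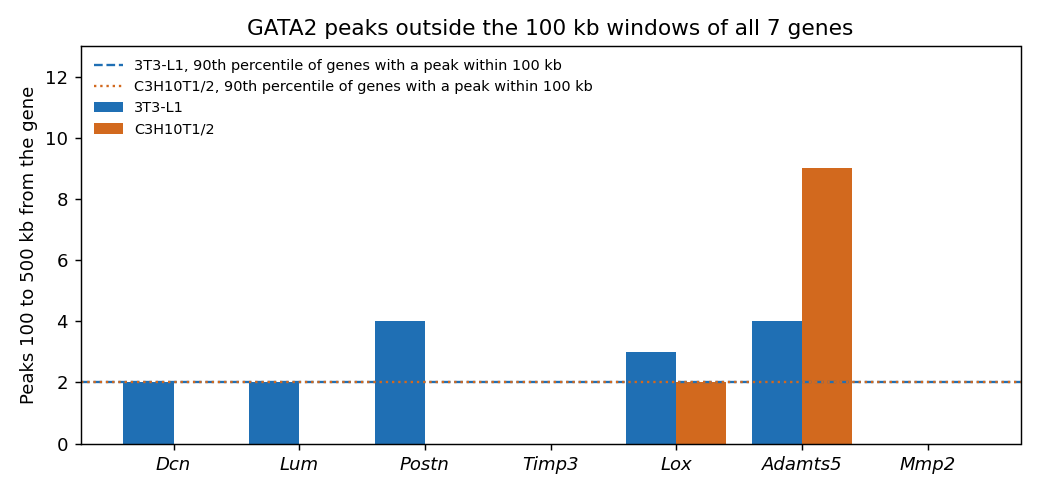
Bars give the number of peaks 100 to 500 kb from each gene by cell line, without peaks in the 100 kb window of any of the 7 genes, and the lines, which coincide at 2, mark the 90th percentile over all genes that have a peak within 100 kb. The Adamts5 bar for C3H10T1/2 reaches 9, and Timp3 and Mmp2 have no bar.

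The families of the 7 genes were counted in the 100 kb window, using lists of 88 genes, all of which matched the gene table. Leaving out the 7 genes, which were picked for having a peak, 15 of 81 family genes (18.5%) had a 3T3-L1 peak and 20 (24.7%) a C3H10T1/2 peak, against 13.9% and 12.1% of all genes, and 7 had both. Leaving out the 7 genes does not leave out their peaks. Kera and Epyc are among the 15 only through the 3T3-L1 peak in the Lum window. The lists were drawn up with earlier results known, and some of their genes are neighbours reached by the same peaks, so no test was made. Of 13 small leucine-rich proteoglycans, 4 had a peak in 3T3-L1, all in the Dcn, Lum, Kera and Epyc cluster. In C3H10T1/2 it was 6, namely Dcn, Lum, Fmod, which encodes fibromodulin, and the Omd, Ogn and Aspn cluster. That cluster had a peak inside Omd, while the nearest 3T3-L1 peak was 996 kb from Aspn. Leaving out Dcn and Lum, it was 2 of 11 in 3T3-L1 and 4 of 11 in C3H10T1/2. Kera and Epyc were reached by the same 3T3-L1 peak, and Omd, Ogn and Aspn by the same C3H10T1/2 peak. With Dcn and Lum included, 5 distinct peaks reached the family in each line. Of 16 matricellular genes, 7 had a peak in 3T3-L1 and 6 in C3H10T1/2, and Postn, Ccn1 and Ccn3 had one in both. Leaving out Postn, it was 6 and 5 of 15. Ccn1 and Ccn3, which encode secreted proteins that bind integrins, had no shared site.

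Of 19 ADAMTS genes, 5 had a 3T3-L1 peak and 6 a C3H10T1/2 peak, and 4 had both, Adamts5, Adamts6, Adamts7 and Adamts16. Without Adamts5 it was 4 and 5 of 18 (22.2% and 27.8%), where 13.9% and 12.1% of all genes had a peak. Adamts16 had 3 peaks in its body or within 10 kb in each line, and 2 sites within 100 kb were shared. Of 20 matrix metalloproteinase genes, 1 had a 3T3-L1 peak (Mmp16, inside the gene) and 2 a C3H10T1/2 peak (Mmp2 and Mmp11). Without Mmp2 it was 1 of 19 in each line (5.26%). Whether the families differ was not tested. Of the 4 inhibitor genes, Timp3 and Timp4 had peaks in both lines, and at Timp4 they lay 98.0 kb and 64.8 kb away. Without Timp3 it was 1 of 3 in each line. Of 5 lysyl oxidase genes, Lox alone had a peak within 100 kb in either line, which leaves 0 of 4 without it. Of 11 listed matrix substrates of these proteins, mostly of fibrils and elastic fibres, Col5a1 had a peak in 3T3-L1 (9.09%). In C3H10T1/2, Col3a1, Col5a1, Col5a2 and Fbn2 (36.4%) were reached by 3 distinct peaks, so neighbours had a peak in common.

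**Figure D5:**
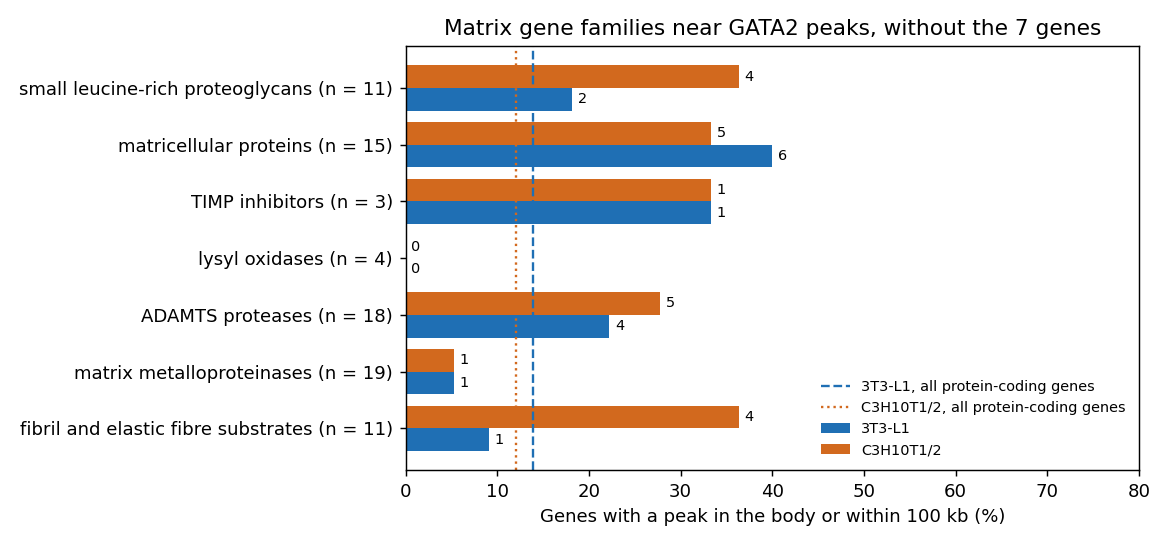
Bars give the percentage of genes of each family, without the 7 genes described here, that have a peak in the body or within 100 kb, by cell line, with the number of genes beside the bar. Peaks in the windows of the 7 genes still count for their neighbours, as for Kera and Epyc in 3T3-L1. The vertical lines mark all protein-coding genes (13.9% in 3T3-L1, 12.1% in C3H10T1/2), and the bars run from 0 of 4 lysyl oxidase genes to 6 of 15 matricellular genes in 3T3-L1.

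Few other genes had the arrangement of peaks seen at Dcn or Timp3. Each gene was described by 8 counts, the peaks in the body, within 10 kb, within 100 kb and shared within 100 kb in each line. No other protein-coding gene had the counts of Dcn or of Timp3. An exact match of all 8 counts is harder to meet for a gene with several peaks. The lack of a match therefore does not show that their arrangement of peaks is rare. The counts of Postn, 1 shared site between 10 and 100 kb, were found at 554 other genes (2.56%), so this arrangement was common. Those nearest in distance were Zfp563 and Rlbp1, with the shared site 55.9 kb and 56.3 kb away. The counts of Lox were found at 43 genes, with Dcbld2 and Ube2b nearest, those of Adamts5 at 68, with Smtnl2 and Tube1 nearest, and those of Lum at 19, with Fads3 and Ndufb4 nearest. The counts of Mmp2, 1 C3H10T1/2 peak in the body and no 3T3-L1 peak within 100 kb, were found at 188 genes, nearest among them Gm3985 and Vcl. The likeness rests on 2 lists and counts neighbouring genes separately.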

How the data were processed

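GATA2 ChIP and input libraries of 2 mouse cell lines were sequenced, and 1 deposited peak list per line was analysed. Each list holds chromosome, start and end in bp with no score. The submitters' processing notes name mm10 as the build. They also name MACS2, Bowtie2, bedtools, SAMtools and CASAVA 1.8 without saying what each did. Whether libraries were pooled, the use of input and the threshold are not given in the sources used here. These choices set which weak sites were listed and how wide peaks are. The read depth is unknown.

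Positions were counted from 1. Genes came from the RefSeq table of GRCm38.p6, which gives no exons and no strand. Strand was read from RefSeq promoter windows where present. Distance ran from peak centre to gene interval, and was 0 inside. Peaks sharing at least 1 bp were called shared. Python 3.11.15, pandas 2.3.3 and numpy 2.4.6 were used, and the counting was checked on simulated peaks. The members and gene lists were chosen with earlier results of these data known. Named genes are the members, genes within 100 kb of their peaks, listed family genes with such a peak, and for each member the 2 genes with the same counts and the most similar distances. Adamts1, Supt20, Gm46240, N6amt1 and the noncoding genes were named after their positions were seen. Peaks beyond 100 kb are described after seeing the data. Alternatives were other windows, distances, overlaps and peak sets.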

Additional observations from a re-analysis of the deposited data

How the results depend on the processing

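Counts of member peaks depended mostly on the window. With a window of 10 kb there was 1 member peak at 1 member in each line, with 0 shared and backgrounds of 3.96% (3T3-L1) and 3.64% (C3H10T1/2). With 50 kb there were 5 and 4 member peaks, 2 shared in each, 4 members in C3H10T1/2, and backgrounds of 8.6% and 7.36%. With 200 kb 3T3-L1 had 20 member peaks, and backgrounds were 23.4% and 20.4%. With 500 kb, chosen after seeing the data, there were 26 and 19 member peaks, 9 shared in each, and backgrounds of 45.3% and 39.2%. Keeping peaks no narrower than their list's median there were 8 and 3 member peaks, 1 shared in each, 3 members in C3H10T1/2, and backgrounds of 7.69% and 6.91%. Giving each peak to its nearest gene alone, at any distance, gave 16 C3H10T1/2 member peaks, 7 shared in each line, and backgrounds of 6.19% and 5.08%, since peaks beyond 100 kb then count. With the limit of 100 kb kept, an alternative added after seeing the data, there were 7 member peaks in each line and backgrounds of 5.28% and 4.43%. With or without that limit, members with a peak numbered 4 in 3T3-L1 and 5 in C3H10T1/2. In all, 45 of 84 values stayed within 1.5 times the reported count or inside the interval of the reported share. These included every count under distances from peak edges or to gene boundaries, without dense runs of at least 8 peaks, and under overlaps of at least 50% or centres within 1 kb. No paired analysis was possible because each line is given as 1 list with no replicate. Depth limits these results in an unknown way, since the lists carry no counts.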
